A study of Homo sapiens with 9 samples.

Results

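Intermediate filament genes were followed through *CTCFL* overexpression and knockdown in OVCAR3, a human cell line derived from high-grade serous ovarian cancer. The 10 genes were *VIM*, *KRT7*, *KRT8*, *KRT17*, *KRT18*, *KRT19*, *KRT80*, *KRT81*, *NES* and *LMNA*. They were taken by name from the 60660 genes of the raw count table, after the Ensembl identifiers had been matched to gene symbols, and all 10 were among the 17794 genes with enough reads to test. No measured value entered their choice by name, but it was made with earlier results of these data known.

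RNA-seq was available for 9 libraries, 3 biological replicates in each of 3 groups. The study's methods describe pooling of technical replicates for the plasmid transfections and do not state it for the knockdown. CTCFL-OE cells were transiently transfected with 2 µg of a plasmid carrying the canonical *CTCFL* reading frame and collected after 48 h. Control cells are labelled as having no *CTCFL* treatment, and the study's methods name a LacZ plasmid as the negative control. In CTCFL-KD cells *CTCFL* was lowered with siRNA, and their RNA came from an earlier experiment. All cells shared the OVCAR3 background and growth in RPMI medium with serum and insulin. No siRNA control is among the groups, so the knockdown and the separate handling of the CTCFL-KD RNA cannot be told apart in any comparison that involves CTCFL-KD.

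Intermediate filaments are rope-like polymers that give cells and nuclei mechanical strength. Keratins are obligate pairs of a type I and a type II chain, vimentin and nestin build filaments in mesenchymal and progenitor cells, and lamins line the inner face of the nuclear envelope. Epithelial cells such as those of the ovarian surface and of serous carcinomas carry simple keratins, and carcinoma cells can carry keratins and vimentin side by side. CTCFL, also called BORIS, is a germline paralog of the chromatin protein CTCF that many ovarian cancers express.

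The libraries held 14332622 to 24490080 counts, and mitochondrial genes took 6.16% to 6.52% of them in Control, 7.4% to 14.9% in CTCFL-OE and 7.8% to 11.8% in CTCFL-KD. Every CTCFL-OE and CTCFL-KD library thus lay above every Control library, and the part of this difference in the results was not tested. Levels are in CPM, or counts over the TMM-scaled library size, and 3 counts (the upper limit behind a count of 0) equalled 0.117 to 0.271 CPM. *CTCFL* itself had 6, 9 and 10 counts in Control, 36, 34 and 72 with *CTCFL* overexpressed and 0, 1 and 0 with *CTCFL* knocked down, so the target moved in the labelled direction from a very low starting level. The increase in CTCFL-OE was 2.73 on the log2 scale (adjusted p = 0.0287 in edgeR's quasi-likelihood fit), and CTCFL-KD was at least 1.89-fold lower than Control, with 3 counts in each library taken as its limit (adjusted p = 0.0162). CTCFL-KD replicate 1 stood apart from the other CTCFL-KD libraries. Its level relative to them depended on gene length (Spearman correlation across genes with length -0.539, against 0.492 and 0.499 in the other replicates), with a median log2 ratio of 0.877 in the shortest 20% of genes and -0.645 in the longest 20%. Where a call against Control changes or a value moves by over 1.5 times without this library, the named genes are also given without it. The part of this length trend in any result was not tested, beyond the fits that leave the library out or remove the trend.

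A gene was counted as a differentially expressed gene (DEG) when its log2 fold change exceeded 1 in size and its p in edgeR's quasi-likelihood test, adjusted over the 17794 genes by the Benjamini-Hochberg method (the edgeR adjusted p), was under 0.1 in CTCFL-OE and under 0.05 in the comparisons with CTCFL-KD. Against Control, *VIM* fell in CTCFL-OE and was the 1 DEG among the 10 genes. In CTCFL-KD, 7 of the 10 were DEGs, with *KRT8* and *KRT18* higher and *KRT7*, *KRT17*, *KRT80*, *KRT81* and *NES* lower. Among all genes tested, 2.07% were DEGs in CTCFL-OE (1.37% higher and 0.702% lower) and 23.2% in CTCFL-KD (15.3% higher and 7.94% lower). When CTCFL-KD was set directly against CTCFL-OE, 5 of the 10 were DEGs, where *VIM*, *KRT8*, *KRT18* and *KRT19* were higher in CTCFL-KD and *KRT81* was lower, beside 17.0% of all genes (10.6% higher and 6.42% lower). By the adjusted p alone, at any fold, 7 of the 10 passed in that comparison, beside 26.8% of all genes. For *VIM*, *NES* and *LMNA* this depended on single libraries, with edgeR adjusted p up to 0.0544, 0.111 and 0.0741 when 1 was left out. The median log2 fold change of the 10 genes was -0.50 in CTCFL-OE and -1.03 in CTCFL-KD, beside -0.01 and 0.08 over all genes tested.

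Lower levels were common to most of these genes in both conditions. The 3 CTCFL-OE libraries lay below all 3 Control libraries for 8 of the 10 genes, and *KRT8* and *KRT18* overlapped. Such complete separation, in either direction, was seen for 37.1% of all genes tested. In CTCFL-KD no gene of the 10 overlapped with Control, with 7 below it and 3 above it, and 56.3% of all genes tested separated in the same way. Between CTCFL-KD and CTCFL-OE, 4 genes lay wholly higher in CTCFL-KD and 4 wholly lower, against 39.8% of all genes in either direction. Both conditions are compared with the same Control libraries, so their fold changes are not independent of each other.

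**Figure D1:**
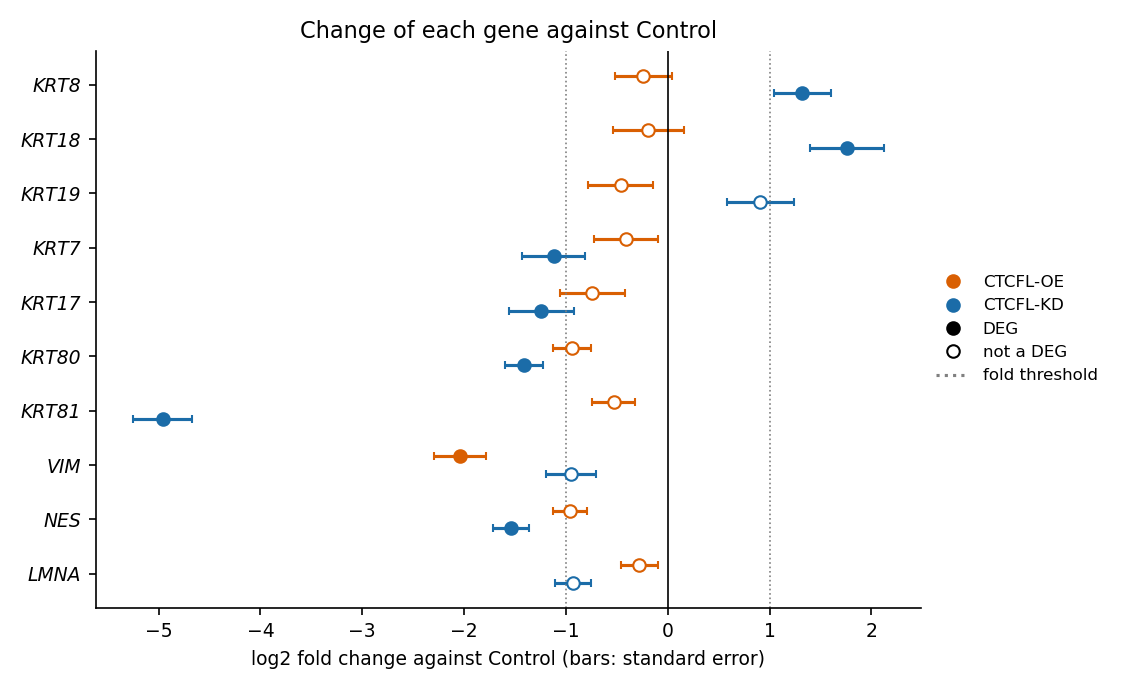
Log2 fold change of each gene against Control in CTCFL-OE (orange) and CTCFL-KD (blue), with bars for the standard error of the edgeR fit, filled symbols for DEGs and dotted lines at the fold threshold. In CTCFL-OE all 10 genes lie at or left of -0.19 and only *VIM* is filled, whereas in CTCFL-KD *KRT8* (1.32), *KRT18* (1.76) and *KRT19* (0.91) lie right of 0 and the other 7 left.

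The simple epithelial keratins *KRT8* and *KRT18* were the DEGs with higher levels in CTCFL-KD. *KRT8* and *KRT18* encode the type II and type I partners of the first keratin pair of simple epithelia, and *KRT19* encodes a short type I keratin that can pair with *KRT8*. *KRT8* (ENSG00000170421.12, GRCh38 chr12:52897187-52949954, minus strand) measured 1605, 1680 and 1625 CPM in Control, 1731, 1347 and 1086 CPM after overexpression and 5710, 3346 and 3218 CPM after knockdown. All 3 CTCFL-KD libraries were higher than every other library, and replicate 1 was far higher than the rest. The gene rose 2.5-fold in CTCFL-KD (log2 fold change 1.32, SE 0.28, edgeR adjusted p = 0.00431), while CTCFL-OE and Control overlapped (-0.24, SE 0.28, edgeR adjusted p = 0.682). The direct comparison of CTCFL-KD with CTCFL-OE gave 1.56 (SE 0.28, edgeR adjusted p = 0.00257).

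*KRT18* (ENSG00000111057.11, chr12:52948871-52952906, plus strand) lies beside *KRT8* on the opposite strand. Its levels were 703, 700 and 699 CPM in Control, 785, 582 and 473 CPM under overexpression and 3963, 1669 and 1509 CPM under knockdown. As for its partner, every CTCFL-KD library exceeded every other library and CTCFL-OE straddled Control. The increase in CTCFL-KD was 3.4-fold (log2 fold change 1.76, SE 0.36, edgeR adjusted p = 0.00356), and the difference between CTCFL-KD and CTCFL-OE was 1.96 (SE 0.37, edgeR adjusted p = 0.00301). In CTCFL-OE the value was -0.19 (SE 0.35, edgeR adjusted p = 0.805).

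*KRT19* (ENSG00000171345.13, chr17:41523617-41528308, minus strand) belongs to the type I cluster on another chromosome. It stood at 662, 666 and 668 CPM in Control, 535, 505 and 407 CPM with *CTCFL* overexpressed and 2056, 854 and 851 CPM with *CTCFL* knocked down. The 3 groups did not overlap, with CTCFL-OE lowest and CTCFL-KD highest. Against Control neither difference made it a DEG, with log2 fold changes of -0.46 (SE 0.32, edgeR adjusted p = 0.477) in CTCFL-OE and 0.91 (SE 0.33, edgeR adjusted p = 0.047) in CTCFL-KD. CTCFL-KD replicate 1 enters the shared estimate of the spread. Without it the CTCFL-OE value was again -0.46, with an edgeR adjusted p of 0.0382, past the p threshold and short of the fold threshold. Set directly against CTCFL-OE, CTCFL-KD was higher by 1.38 on the log2 scale (SE 0.33, edgeR adjusted p = 0.0111).

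Replicate 1 of CTCFL-KD carried part of these increases. It exceeded the mean of the other 2 CTCFL-KD libraries 1.74 times for *KRT8*, 2.49 times for *KRT18* and 2.41 times for *KRT19*. Without it, *KRT8* and *KRT18* remained DEGs with smaller log2 fold changes, 1.01 (edgeR adjusted p = 0.00143) and 1.19 (edgeR adjusted p = 0.000588). *KRT19* then measured 0.36 (edgeR adjusted p = 0.0516), and its difference from CTCFL-OE, 0.82 (edgeR adjusted p = 0.00118), no longer passed the fold threshold. With per-library offsets that remove the trends with length and GC content, *KRT8* measured 1.01, *KRT18* 1.40 and *KRT19* 0.47 in CTCFL-KD.

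**Figure D2:**
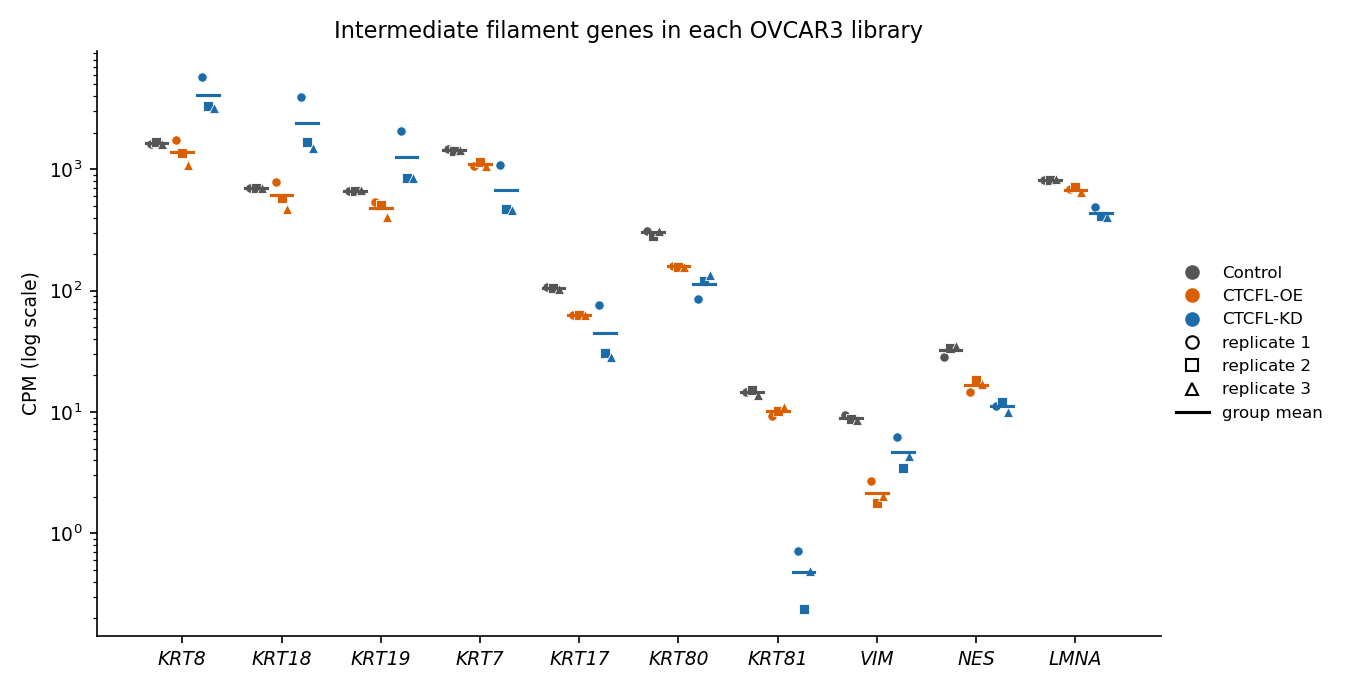
CPM of each gene in every library on a log scale, with Control in grey, CTCFL-OE in orange and CTCFL-KD in blue, a symbol shape for each replicate number and a short line for the group mean. The blue symbols lie above the grey for *KRT8*, *KRT18* and *KRT19* and below them for the other 7 genes, and the blue circle (replicate 1) is the highest of its group except for *KRT80*, where it is lowest at 85.7 CPM, and *NES*, where it lies between the other 2.

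Reads of the *KRT8* and *KRT18* pair have known sources of ambiguity. The genes share 525 exonic bases on opposite strands, and the strand setting of the read counting is not given in the sources used here. Pseudogenes named after *KRT8* (51 of them) held between 2.51% and 4.34% of the counts of the gene itself, and those of *KRT18* (67) between 1.17% and 1.89%. Adding these copies to the parent genes changed the DEG status of neither.

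*KRT7*, a type II keratin of glandular and ductal epithelia that is a standard marker of ovarian carcinoma, went the other way. Its levels (ENSG00000135480.16, chr12:52232520-52252186, plus strand) were 1480, 1422 and 1450 CPM in Control, 1071, 1147 and 1064 CPM after overexpression and 1076, 470 and 463 CPM after knockdown. Both conditions lay below Control throughout, but CTCFL-KD replicate 1 fell among the CTCFL-OE libraries. The gene fell 2.17-fold in CTCFL-KD (log2 fold change -1.12, SE 0.31, edgeR adjusted p = 0.0164) and measured -0.41 in CTCFL-OE (SE 0.31, edgeR adjusted p = 0.513), and the 2 conditions differed by -0.71 (SE 0.31, edgeR adjusted p = 0.112), or by -1.05 with the length and GC offsets, where the difference made it a DEG (edgeR adjusted p = 0.00104). In CTCFL-OE the value without CTCFL-KD replicate 1 was again -0.41, with an edgeR adjusted p of 0.0405, short of the fold threshold. The call in CTCFL-KD depended on single libraries. Without replicate 1 of CTCFL-KD the log2 fold change was -1.63 (edgeR adjusted p = 8.4e-06). Without replicate 2 or 3 it was -0.91 (edgeR adjusted p = 0.0519) or -0.92 (edgeR adjusted p = 0.0516). An antisense gene, *KRT7-AS*, shares 282 exonic bases with it and was not a DEG against Control in either condition, but it was lower in CTCFL-KD than in CTCFL-OE (-1.10, edgeR adjusted p = 0.0123).

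*KRT17*, *KRT80* and *KRT81* all fell in CTCFL-KD. *KRT17* encodes a type I keratin that epithelia switch on in wounds and tumours, *KRT80* a type II keratin of differentiating epithelia, and *KRT81* a type II hair keratin that some carcinomas also make. *KRT17* (ENSG00000128422.17, chr17:41619442-41624842, minus strand) measured 107, 106 and 104 CPM in Control, 62.6, 63.5 and 63.3 CPM under overexpression and 75.6, 30.9 and 28.3 CPM under knockdown. CTCFL-OE and CTCFL-KD were both below Control, and replicate 1 of CTCFL-KD was above all CTCFL-OE libraries while the other 2 were below them. *KRT17* fell 2.36-fold in CTCFL-KD (log2 fold change -1.24, SE 0.32, edgeR adjusted p = 0.0114), a call that ended without CTCFL-KD replicate 3, when the fold threshold was narrowly missed (edgeR adjusted p = 0.0311), and differed from CTCFL-OE by -0.50 (SE 0.32, edgeR adjusted p = 0.267). In CTCFL-OE the log2 fold change of -0.74 (SE 0.32) had an edgeR adjusted p of 0.254 with all libraries and 0.00131 without CTCFL-KD replicate 1, a library outside that comparison that enters the shared estimate of the spread. Neither value passes the fold threshold.

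*KRT80* (ENSG00000167767.14, chr12:52168996-52192014, minus strand) had 310, 284 and 311 CPM in Control, 159, 157 and 157 CPM with *CTCFL* overexpressed and 85.7, 121 and 134 CPM with *CTCFL* knocked down. The groups separated completely in a descending order from Control through CTCFL-OE to CTCFL-KD. Its decrease in CTCFL-KD was 2.66-fold (log2 fold change -1.41, SE 0.19, edgeR adjusted p = 0.000324). In CTCFL-OE the level was 1.91-fold lower than Control (-0.94, SE 0.19, edgeR adjusted p = 0.0479), which passes the p threshold and misses the fold threshold, and under the length and GC offsets it was -1.04 (edgeR adjusted p = 0.0154). The difference between CTCFL-KD and CTCFL-OE, -0.47 (SE 0.19), had an edgeR adjusted p of 0.0883.

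*KRT81* showed the largest change of the 10 genes. It (ENSG00000205426.10, chr12:52285913-52291534, minus strand) had 292, 388 and 275 counts in Control, 202, 194 and 178 after overexpression and 8, 4 and 9 after knockdown, or 14.6, 15.1 and 13.9, then 9.21, 10.1 and 10.9, then 0.722, 0.238 and 0.493 CPM. All CTCFL-KD libraries were close to the detection limit and far below every other library. *KRT81* fell 31.1-fold in CTCFL-KD (log2 fold change -4.96, SE 0.29, edgeR adjusted p = 2.2e-06) and measured -0.53 in CTCFL-OE (SE 0.21, edgeR adjusted p = 0.226), and the 2 conditions differed by -4.43 on the log2 scale (SE 0.29, edgeR adjusted p = 8.0e-06). Without CTCFL-KD replicate 1 the CTCFL-OE value was again -0.53, with an edgeR adjusted p of 0.0327, short of the fold threshold.

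Near-identical neighbours of *KRT81* make the exact size of its decrease uncertain. *KRT86* went from 2.38 ± 0.116 CPM in Control to 0.653 ± 0.159 CPM in CTCFL-KD (SD, n = 3), a log2 fold change of -1.89 (edgeR adjusted p = 0.000661), whereas *KRT83* measured -0.94 (edgeR adjusted p = 0.0908), or -1.66 without CTCFL-KD replicate 1 (edgeR adjusted p = 0.000573). With the counts of the copies added to those of *KRT81*, the decrease in CTCFL-KD was -2.98 on the log2 scale (edgeR adjusted p = 4.4e-05). The genes most like *KRT81* over the 9 libraries, by the root mean square difference of log2 CPM centred on the Control mean among 11229 protein-coding genes with a mean of at least 5 CPM in a group, were *IL32* (0.27), *ITGB3* (0.50) and *IGF2BP1* (0.51). *IL32*, which encodes a cytokine, averaged 13.0, 11.3 and 0.534 CPM in Control, CTCFL-OE and CTCFL-KD.

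Vimentin had the largest fold change of the 10 genes in CTCFL-OE. *VIM* (ENSG00000026025.16, chr10:17228241-17237593, plus strand) encodes the type III filament protein of mesenchymal cells, which carcinoma cells often gain as they become motile. Its levels were 9.42, 8.78 and 8.61 CPM in Control, 2.69, 1.78 and 2.03 CPM under overexpression and 6.22, 3.45 and 4.33 CPM under knockdown. The 3 groups did not overlap, with Control highest, CTCFL-KD between and CTCFL-OE lowest. *VIM* fell 4.1-fold in CTCFL-OE (log2 fold change -2.04, SE 0.26, edgeR adjusted p = 0.00629) and was a DEG there under all 19 other settings tried, with log2 fold changes between -2.24 and -1.91.

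In CTCFL-KD the *VIM* level was 1.93-fold lower than Control (log2 fold change -0.95, SE 0.25, edgeR adjusted p = 0.0113), just short of the fold threshold. It passed that threshold in 5 of the 19 other settings, among them the fit without CTCFL-KD replicate 1 (-1.19, edgeR adjusted p = 0.00071). CTCFL-KD exceeded CTCFL-OE by 1.08 (SE 0.26, edgeR adjusted p = 0.0116), which dropped to 0.84 (edgeR adjusted p = 0.011) without that replicate and to 0.95 (edgeR adjusted p = 0.0544) without CTCFL-OE replicate 2. With the length and GC offsets it was 0.99 (edgeR adjusted p = 0.00828), and it narrowly missed the fold threshold with block and offsets too. The antisense gene *VIM-AS1*, which shares 656 exonic bases with *VIM*, had 12, 22 and 21 counts in Control, 5, 3 and 3 with *CTCFL* overexpressed and 7, 9 and 13 with *CTCFL* knocked down. It fell with *VIM* in CTCFL-OE (log2 fold change -2.10, edgeR adjusted p = 0.0333), and reads of the 2 genes cannot be told apart where they overlap unless strand was used in counting.

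Vimentin was already low in Control. Per kilobase of merged exons, *VIM* averaged 1.73 ± 0.082 CPM in Control (SD, n = 3), at percentile 33.3 of the 13697 protein-coding genes tested, whereas *KRT7* with 363 CPM per kilobase stood at percentile 99.6. With the length of the longest transcript in place of merged exons these levels were 3.35 and 893 CPM per kilobase. The genes with the profile most like it, by the same measure as for *KRT81*, were *LYPD1* (0.29), *S100A2* (0.52) and *LDHA* (0.54). *LYPD1* averaged 22.9 CPM in Control, 5.96 after overexpression and 16.0 after knockdown, where replicate 1 stood at Control levels with 24.2 CPM.

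*NES*, the type IV filament gene of neural and other progenitor cells, declined step by step across the groups. It (ENSG00000132688.11, chr1:156668763-156677407, minus strand) measured 28.2, 33.8 and 34.7 CPM in Control, 14.5, 18.2 and 17.0 CPM under overexpression and 11.2, 12.2 and 9.91 CPM under knockdown. No library of one group reached the range of another. *NES* fell 2.91-fold in CTCFL-KD (log2 fold change -1.54, SE 0.18, edgeR adjusted p = 9.7e-05), and this held in all 19 other settings. In CTCFL-OE it was 1.95-fold lower (-0.96, SE 0.17, edgeR adjusted p = 0.0289), past the p threshold but under the fold threshold, and CTCFL-KD was lower than CTCFL-OE by -0.58 on the log2 scale (SE 0.17, edgeR adjusted p = 0.0315). Replicate 1 of CTCFL-KD measured 1.01 times the mean of the other 2.

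Because *VIM* and *NES* were the non-keratin genes with the lowest ratios to Control in CTCFL-OE, the 250 bases before their annotated starts are shown for reference, from RefSeq on GRCh38.p14, on the strand of the gene. Capitals mark the GC box GGGCGG or its reverse complement, the binding motif of SP family factors.
*VIM* (chr10:17227991-17228240, plus strand): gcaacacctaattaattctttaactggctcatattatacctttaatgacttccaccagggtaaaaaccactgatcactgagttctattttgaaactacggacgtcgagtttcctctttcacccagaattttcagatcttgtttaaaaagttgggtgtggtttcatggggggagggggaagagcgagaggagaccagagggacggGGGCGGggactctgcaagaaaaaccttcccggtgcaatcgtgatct
*NES* (chr1:156677408-156677657, minus strand): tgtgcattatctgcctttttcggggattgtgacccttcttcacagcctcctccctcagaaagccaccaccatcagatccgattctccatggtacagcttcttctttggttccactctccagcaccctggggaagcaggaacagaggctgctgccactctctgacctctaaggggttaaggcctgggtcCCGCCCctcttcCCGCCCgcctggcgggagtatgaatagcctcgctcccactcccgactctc
The *VIM* stretch has 46.0% G and C and 1 GC box, whose first letter lies 46 bases before the start. The *NES* stretch has 58.0% G and C and 2 GC boxes, at 62 and 50 bases. Promoter windows were matched for 4 of the 10 genes, *VIM*, *KRT8*, *NES* and *LMNA*, and not for *KRT7*, *KRT17*, *KRT18*, *KRT19*, *KRT80* and *KRT81*. The *KRT8* window belongs to a start 23485 bases from that of the annotated gene, so it describes another start. Over windows from 250 bases before to 50 after the start, searched on both strands, GGGCGG occurred in 45.0% of 35116 promoters, the letters AGGNGGCGC from the centre of the CTCF and CTCFL motif in 4.79%, TATAAA in 11.5% and the AP-1 site TGANTCA in 7.71%. None of the 4 matched windows held AGGNGGCGC, TATAAA or TGANTCA, which says only that these letters are not there.

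*LMNA* encodes lamins A and C, the type V filaments of the nuclear lamina, which gene counts do not separate. It (ENSG00000160789.22, chr1:156082573-156140081, plus strand) had 822, 808 and 837 CPM in Control, 686, 710 and 643 CPM with *CTCFL* overexpressed and 488, 408 and 403 CPM with *CTCFL* knocked down. The groups again separated completely, with CTCFL-KD lowest. CTCFL-KD was 1.9-fold lower than Control (log2 fold change -0.93, SE 0.18, edgeR adjusted p = 0.00256), which misses the fold threshold, and CTCFL-OE measured -0.28 (SE 0.18, edgeR adjusted p = 0.446). CTCFL-KD was lower than CTCFL-OE by -0.65 on the log2 scale (SE 0.18, edgeR adjusted p = 0.0216). Leaving out CTCFL-KD replicate 1 gave -1.02 against Control (edgeR adjusted p = 0.000111), past the fold threshold.

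The B-type lamin genes were not DEGs in CTCFL-KD either. *LMNB1* measured -0.58 (edgeR adjusted p = 0.0183) and *LMNB2* -0.83 (edgeR adjusted p = 0.00442) on the log2 scale. The ratio of *LMNA* to *LMNB1* counts was 4.64, 4.49 and 4.45 in Control, 4.01, 4.76 and 4.4 after overexpression and 4.56, 3.03 and 3.24 after knockdown. Only the latter 2 CTCFL-KD libraries lay below all others.

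**Figure D3:**
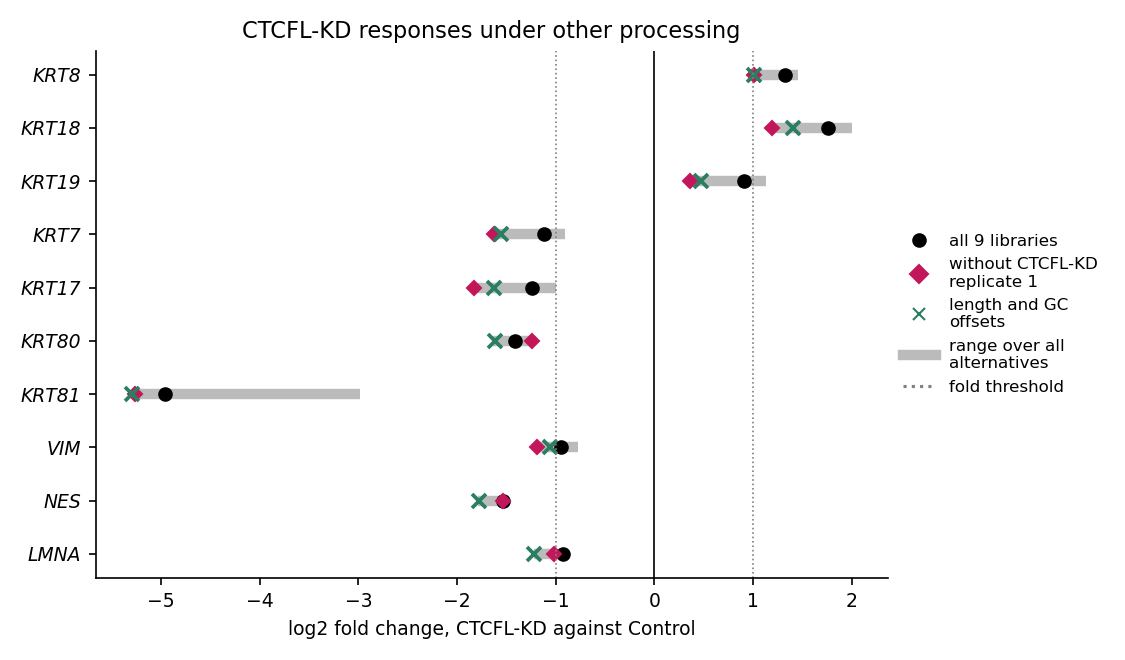
Log2 fold change of each gene in CTCFL-KD against Control with all 9 libraries (black circles), without CTCFL-KD replicate 1 (pink diamonds) and with length and GC offsets (green crosses), with a grey bar for the range over all alternatives and dotted lines at the fold threshold. No gene changes direction, *KRT19* moves from 0.91 to 0.36 without replicate 1, and *KRT17* moves from -1.24 to -1.83.

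The make-up of the keratin counts is described with 2 sets that follow the direction of each member keratin in CTCFL-KD, so a shift between them there follows from the grouping. All 54 keratin genes summed to 5118 ± 6.7 CPM in Control, 3961 ± 568 CPM under overexpression and 8669 ± 3857 CPM under knockdown (SD, n = 3), where replicate 1 had 13119 CPM and the others 6589 and 6299 CPM. *KRT8*, *KRT18* and *KRT19* made up 58.0%, 59.5% and 58.5% of keratin counts in Control, 67.4%, 61.4% and 58.0% with *CTCFL* overexpressed and 89.4%, 89.1% and 88.5% with *CTCFL* knocked down. *KRT7*, *KRT17*, *KRT80* and *KRT81* together held 36.6% ± 0.81 in Control, 33.9% ± 4.78 after overexpression and 9.6% ± 0.29 after knockdown (SD, n = 3). Unlike the levels, these shares were alike in all 3 CTCFL-KD libraries, replicate 1 included. They are shares of counts, not per length, and carry no test.

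**Figure D4:**
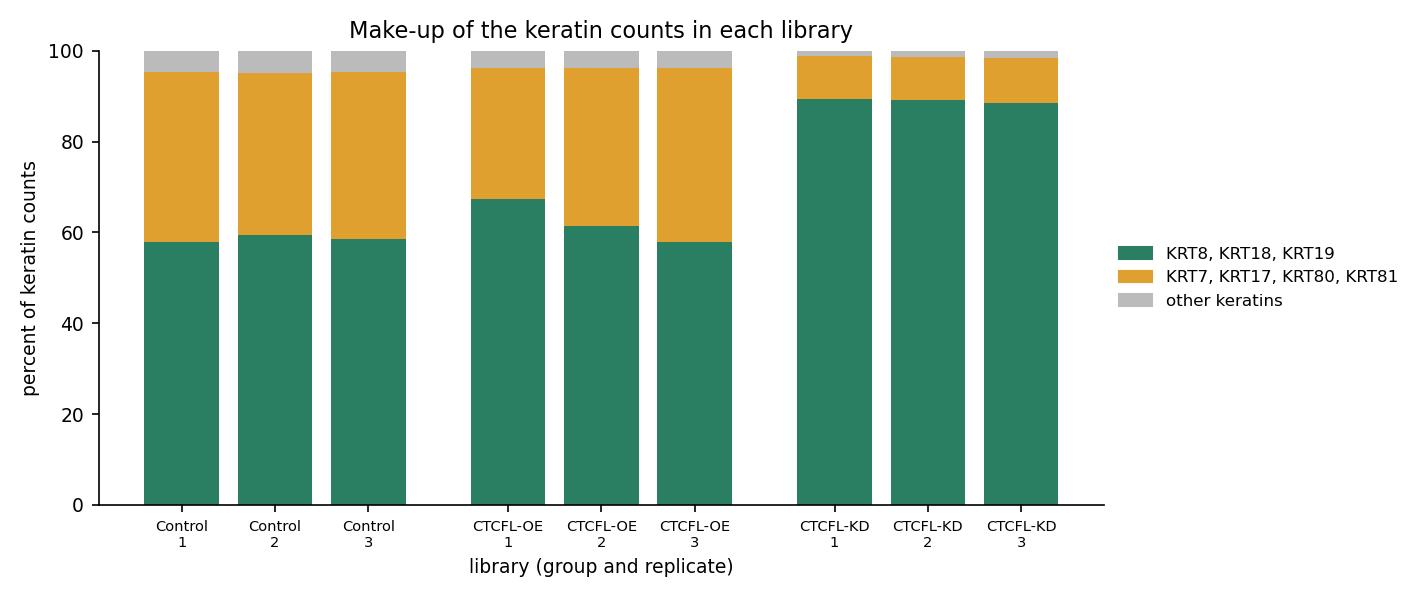
Percent of all keratin counts in each library taken by *KRT8*, *KRT18* and *KRT19* (green), by *KRT7*, *KRT17*, *KRT80* and *KRT81* (yellow) and by the other keratins (grey). The green part is between 58.0% and 67.4% in the Control and CTCFL-OE libraries and between 88.5% and 89.4% in the CTCFL-KD libraries.

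Type I and type II counts were compared as well. The ratio of type II to type I counts was 2.16 in each Control library, 2.07, 2.23 and 2.35 after overexpression and 1.12, 1.53 and 1.58 after knockdown, so all CTCFL-KD libraries were lower. For the *KRT8* and *KRT18* pair the ratio was 2.28, 2.4 and 2.33 in Control, 2.21, 2.31 and 2.29 under overexpression and 1.44, 2.01 and 2.13 under knockdown. Vimentin relative to keratin was low in both conditions, with 1.75 ± 0.0808 *VIM* counts for every 1000 keratin counts in Control, 0.547 ± 0.0855 with *CTCFL* overexpressed and 0.562 ± 0.111 with *CTCFL* knocked down (SD, n = 3).

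Levels between genes can be compared only per length. In CPM per kilobase of merged exons, the Control order was *KRT7* (363), *KRT19* (285), *KRT8* (238), *KRT18* (228), *LMNA* (101), *KRT80* (69.1), *KRT17* (35.3), *KRT81* (7.54), *NES* (5.8) and *VIM* (1.73). Every neighbouring pair in that order was separated in each Control library, although *KRT8* and *KRT19* changed places when the longest transcript was used as the length. In CTCFL-OE *KRT7* stayed first (274 ± 11.5, SD, n = 3), and *KRT19* (206), *KRT8* (202) and *KRT18* (200) overlapped in their ranges. In CTCFL-KD *KRT18* (776 ± 447), *KRT8* (595 ± 204) and *KRT19* (537 ± 297) came before *KRT7* (167 ± 87.9, SD, n = 3), with *KRT18* first in each library. *KRT8* and *KRT19* changed places in replicate 1, as did *KRT80* and *KRT17*. By the longest transcript the order in each CTCFL-KD library was *KRT8* (1430 on average), *KRT18* (1140) and *KRT19* (902). *KRT81* ended last, behind *VIM*.

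Most DEGs in the rest of the family were lower. Of 62 other intermediate filament genes, 21 had enough reads to be tested. Among these 6 were DEGs in CTCFL-OE (1 higher and 5 lower, median log2 fold change -0.25), or 28.6% beside 2.07% of all genes, of which 0.702% were lower, and 3 were DEGs when any single Control library was left out. Those 3 were *KRT6A*, *KRT6B* and *KRT6C*, the only ones called in all 19 other settings. They are near-identical genes that may share reads, so they may not be separate results. All 3 were also DEGs in CTCFL-KD. In CTCFL-KD 13 were DEGs (2 higher and 11 lower, median -1.06), or 61.9% beside 23.2% of all genes, of which 7.94% were lower. Direct comparison of CTCFL-KD with CTCFL-OE gave 9 (1 higher and 8 lower, median -0.81), or 42.9% beside 17.0%, of which 6.42% were lower. That count ranged from 6 to 14 over the 19 other settings, and the calls of *KRT6C*, *KRT16* and *KRT78* in it were lost in 11, 9 and 4 of them. Of all 54 keratins, 20 were tested, and 25 had 3 counts or fewer in every library.

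Of the 8 other type II keratins tested, 4 were DEGs in CTCFL-OE (1 higher and 3 lower) and 7 in CTCFL-KD (1 higher and 6 lower), beside 2.07% and 23.2% of all genes. *KRT6A*, a keratin of wounded and hyperproliferative epithelia, fell from 47.6 ± 0.827 CPM in Control to 9.38 ± 0.383 CPM in CTCFL-OE (log2 fold change -2.34, edgeR adjusted p = 0.000605) and to 3.47 ± 0.684 CPM in CTCFL-KD (-3.76, edgeR adjusted p = 9.0e-07) (SD, n = 3). *KRT6B* and *KRT6C* fell in both conditions too, with log2 fold changes of -2.36 and -2.16 in CTCFL-OE, but the 3 genes are near-identical, so the reads of one may be counted to another. *KRT78* fell in CTCFL-KD from 1.53 ± 0.0641 to 0.386 ± 0.262 CPM (-2.08, edgeR adjusted p = 0.00462, SD, n = 3), with 7, 7 and 2 counts there. The basal keratin *KRT5* fell in CTCFL-KD (-1.92, edgeR adjusted p = 1.7e-05) and measured -0.21 in CTCFL-OE (edgeR adjusted p = 0.502), and the difference between them was -1.71 (edgeR adjusted p = 5.6e-05). *KRT4*, a keratin of stratified mucosa, rose in both, from 10.8 ± 0.507 CPM in Control to 34.2 ± 9.74 CPM in CTCFL-OE (1.66, edgeR adjusted p = 0.0176) and 38.0 ± 11.7 CPM in CTCFL-KD (1.81, edgeR adjusted p = 0.000494) (SD, n = 3). Its call in CTCFL-OE was lost when any single Control library was left out.

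Among the type I keratins, *KRT23* fell in both conditions, by -1.01 in CTCFL-OE (edgeR adjusted p = 0.0455) and by -1.82 in CTCFL-KD (edgeR adjusted p = 0.000106). The *KRT23* call in CTCFL-OE, just past the fold threshold, was lost in 8 of the 19 other settings, including those without any single Control library. *KRT16*, the usual partner of *KRT6A*, fell in CTCFL-KD (-2.62, edgeR adjusted p = 0.00216, and -3.52 without CTCFL-KD replicate 1, edgeR adjusted p = 7.38e-05) and measured -1.04 in CTCFL-OE (edgeR adjusted p = 0.242). *KRT15* rose in CTCFL-KD, from 2.69 ± 0.282 to 9.64 ± 4.39 CPM (1.82, edgeR adjusted p = 0.0019, SD, n = 3). Outside the keratins, *NEFH*, which encodes the heavy neurofilament chain, fell 16.2-fold in CTCFL-KD, from 10.1 ± 0.0817 to 0.635 ± 0.188 CPM (-4.02, edgeR adjusted p = 2.8e-06, SD, n = 3), and measured 0.10 in CTCFL-OE. *SYNM*, encoding the vimentin-binding filament protein synemin, fell in CTCFL-KD (-1.53, edgeR adjusted p = 0.000426), and *IFFO2* fell in both (-1.02 in CTCFL-OE, edgeR adjusted p = 0.0494, and -1.06 in CTCFL-KD, edgeR adjusted p = 0.0034). The *IFFO2* call in CTCFL-OE was lost in 9 of the 19 other settings, including those that left out any single Control or CTCFL-OE library, and its call in CTCFL-KD was lost without CTCFL-KD replicate 1.

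**Figure D5:**
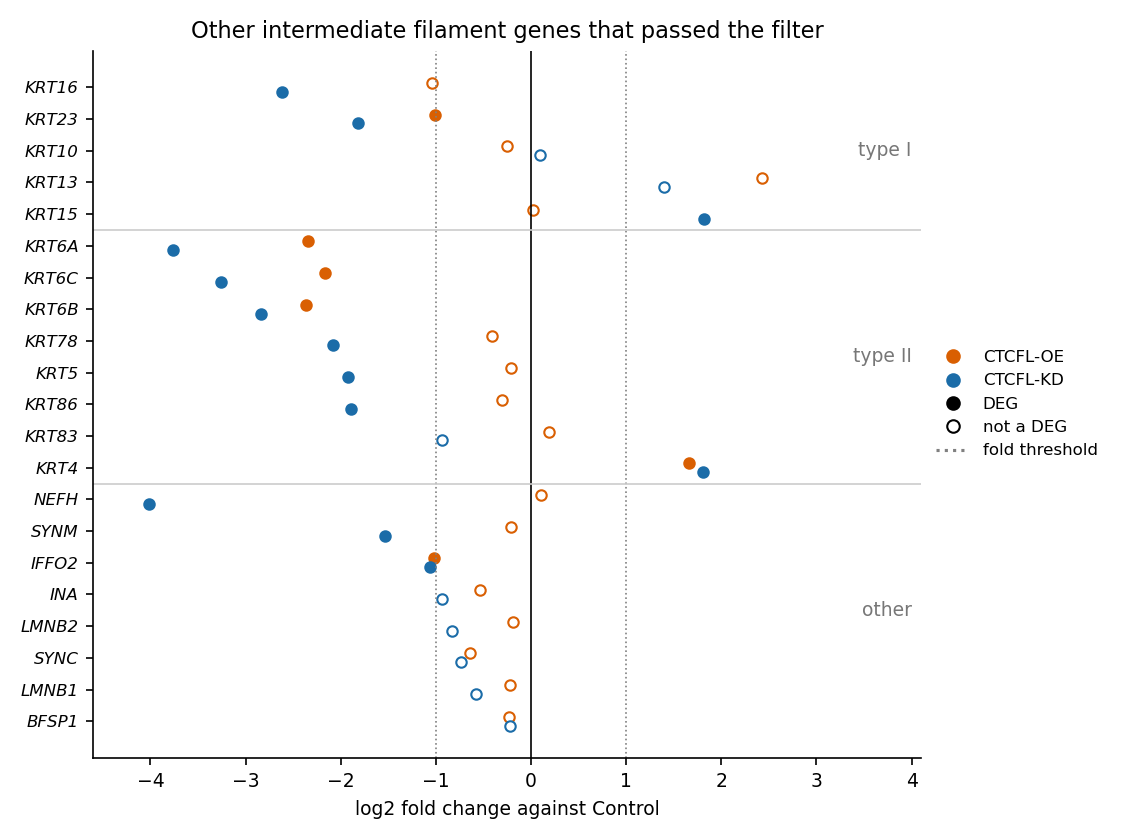
Log2 fold change against Control of the 21 other intermediate filament genes that were tested, in CTCFL-OE (orange) and CTCFL-KD (blue), grouped into type I keratins, type II keratins and others, with filled symbols for DEGs and dotted lines at the fold threshold. The blue symbols of *NEFH* (-4.02) and *KRT6A* (-3.76) lie farthest left, and *KRT4* and *KRT15* are the filled symbols right of 0.

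Of 15 tested plakin and desmosomal plaque genes 0 were DEGs in CTCFL-OE (median log2 fold change 0.06) and 3 were DEGs in CTCFL-KD (2 higher and 1 lower, median 0.24). These counts are 0.00% and 20.0%, close to the 2.07% and 23.2% of all genes, and so say nothing particular about these genes. *EVPL*, encoding the cornified envelope plakin envoplakin, rose (1.18, edgeR adjusted p = 0.00116), as did the desmosomal cadherin gene *DSC2* (1.18, edgeR adjusted p = 0.0039). *FLG*, which encodes the keratin-aggregating protein filaggrin, fell from 517, 677 and 605 CPM in Control to 52.5, 222 and 158 CPM in CTCFL-KD (-2.05, edgeR adjusted p = 0.00337). Among the 14 lamina partners 0 were DEGs in CTCFL-OE, and CTCFL-KD had 3 that rose, the nesprin genes *SYNE3* (1.85, edgeR adjusted p = 0.0014) and *SYNE2* (1.49, edgeR adjusted p = 0.00531) and the inner membrane gene *LEMD2* (1.22, edgeR adjusted p = 0.0035). That is 21.4% of the list, beside 23.2% of all genes in either direction and 15.3% higher. The count is close to the former share and says nothing particular about these genes. Without CTCFL-KD replicate 1 the count was 5, all higher, with *SUN1* (1.16) and *SYNE1* (1.22) added.

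Of 13 genes whose products modify keratin or vimentin filaments, 0 were DEGs in CTCFL-OE and 5 were in CTCFL-KD, all lower. The latter is 38.5%, beside 23.2% of all genes in either direction and 7.94% lower. The 14-3-3 genes, whose products bind phosphorylated keratins, accounted for *SFN* (-1.33, edgeR adjusted p = 0.0192, and -2.11 without CTCFL-KD replicate 1), *YWHAG* (-1.26, edgeR adjusted p = 0.00309) and *YWHAZ* (-1.09, edgeR adjusted p = 0.0028). The mitotic kinase gene *PLK1* (-1.23, edgeR adjusted p = 0.000582) and the filament-phosphorylating kinase gene *ROCK2* (-1.12, edgeR adjusted p = 0.00584) were the others. Without CTCFL-KD replicate 1 *ROCK2* missed the fold threshold (-0.85), and the heat shock gene *HSPB1* of the same list became a DEG (-1.93). In CTCFL-OE edgeR and DESeq2 both gave 0 DEGs in each of these 3 lists. An unadjusted edgeR p under 0.05 was seen there for 1 of 15 plakin and desmosomal genes, 2 of 14 lamina partners and 3 of 13 modifiers. The share of all genes under that p is not given here, so these counts say nothing particular about the lists.

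Cell type markers also differed between the groups. The 14 markers of serous carcinoma and epithelial cells summed to between 2181 and 2267 CPM in Control, 2115 and 2827 CPM after overexpression and 5191 and 5798 CPM after knockdown. The 5 that were DEGs in CTCFL-KD (*MUC16*, *CLDN3*, *CLDN4*, *CLDN7* and *EPCAM*) all rose. They were 35.7% of the list, beside 23.2% of all genes in either direction and 15.3% higher. *EPCAM* missed the fold threshold without CTCFL-KD replicate 1 (0.94). *WT1*, a serous carcinoma marker, went the other way without becoming a DEG, from 72.8 ± 1.72 CPM in Control to 47.0 ± 8.37 CPM in CTCFL-KD (SD, n = 3, log2 fold change -0.63, edgeR adjusted p = 0.0272). None of the 14 was near 0. The 15 fibroblast markers summed to between 33.5 and 38.3, 32.4 and 53.3, and 47.7 and 57.4 CPM in the same order, with *COL6A3* and *ZEB1* at 3 counts or fewer in every library. Of the 7 tested, 3 were DEGs in CTCFL-KD, all higher, or 42.9% against the same 23.2% and 15.3%. One of the 3, *COL1A2*, had 0 counts in every Control library and 156, 239 and 247 counts in CTCFL-KD, at least 99.8-fold higher than the mean CPM of 3 counts in Control. *COL1A1* (-0.36, edgeR adjusted p = 0.221) and *TAGLN* (-0.54, edgeR adjusted p = 0.243) had lower values in every CTCFL-KD library than in Control, and the median of the 7 was -0.05. The 9 blood and endothelial markers summed to between 8.76 and 9.95, 12.0 and 13.0, and 15.6 and 22.5 CPM, with 5 tested, 3 higher and 1 lower DEGs in CTCFL-KD (80.0% of those tested, beside 23.2% of all genes), and *CD68* and *CD3E* at 3 counts or fewer in every library. Fewer cells of a type and less RNA per cell cannot be told apart in bulk RNA, and the part of these shifts in the keratin and vimentin results was not tested.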

How the data were processed

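RNA-seq reads of 9 OVCAR3 libraries had been trimmed with Trimmomatic, aligned to GRCh38 with STAR and counted on genes with featureCounts by the authors. The deposited values are raw gene counts without normalization, and the whole table equalled the 9 single-library files column by column. The submitters' processing notes also name kallisto, whose role is not given. Symbols came from GENCODE release 44 (60419 of 60660 identifiers matched). The 10 genes, the lists and the tests were chosen with earlier results of these data known.

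All 9 libraries entered 1 quasi-likelihood fit in edgeR 4.0.16 (R 4.3.3) with TMM scaling, filterByExpr and robust estimation, and p-values were adjusted by Benjamini-Hochberg over 17794 genes. The steps were tested on simulated data. Named genes of each list came from the up to 5 DEGs of a comparison with the largest fold change whose groups did not overlap, and marker lists were given mainly as counts. Near copies, the lamins, *HSPB1*, *WT1*, *COL1A1* and *TAGLN* were named after their values were seen. Libraries of a group differed beyond counting noise in every pair (chi-square per degree of freedom 3.85 to 9.52 in Control, 32.8 to 137 in CTCFL-OE, 10.4 to 199 in CTCFL-KD).

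Replicate numbers paired Control with CTCFL-KD by correlation of deviations from the group means (0.251, 0.151 and 0.173 for replicates 1, 2 and 3, over 15371 genes), a pairing seen in the data and not stated in the labels. With the trends with length and GC content removed, these correlations fell to 0.12, 0.109 and 0.104. Alternatives were DESeq2 1.42.0, upper-quartile or RLE scaling, every gene kept without a filter, fits of 2 groups, robust estimation off, a replicate block, length and GC offsets, both together, each library left out, copies summed, the longest transcript as length and total counts as library size.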

Additional observations from a re-analysis of the deposited data

Results flagged for a closer look

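For 7 of the 10 genes the response to knockdown differed from the response to overexpression, by the adjusted p alone in the direct edgeR quasi-likelihood comparison of CTCFL-KD with CTCFL-OE, beside 26.8% of all genes. On the log2 scale the difference was 1.08 for *VIM*, 1.56 for *KRT8*, 1.96 for *KRT18*, 1.38 for *KRT19*, -4.43 for *KRT81*, -0.58 for *NES* and -0.65 for *LMNA*, with edgeR adjusted p-values of 0.0116, 0.00257, 0.00301, 0.0111, 8.0e-06, 0.0315 and 0.0216. The differences of *NES* and *LMNA* did not reach the fold threshold, so 5 of the 10 were DEGs, beside 17.0% of all genes. With 1 library left out, the edgeR adjusted p rose to at most 0.0544 for *VIM*, 0.111 for *NES* and 0.0741 for *LMNA*. Under the length and GC offsets *KRT7* (0.00104), *KRT17* (0.00586) and *KRT80* (0.0361) were also under 0.05. For *KRT8*, *KRT18* and *KRT19* the group means lay on opposite sides of Control. None of these was a DEG in CTCFL-OE, where the libraries of *KRT8* and *KRT18* overlapped with Control. For *VIM*, *KRT81*, *NES* and *LMNA* both conditions were below Control and differed in the size of the decrease. The CTCFL-KD RNA came from a separate experiment, so knockdown and handling cannot be told apart in these differences.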

How the results depend on the processing

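No gene of the 10 changed direction in any comparison under the 19 other settings. Of 190 values for CTCFL-OE, 186 kept their side of the thresholds, as did 175 of 190 for CTCFL-KD and 181 of 190 for CTCFL-KD against CTCFL-OE. In CTCFL-OE the length and GC offsets gave 3 DEGs among the 10 instead of 1, adding *KRT80* (-1.04) and *NES* (-1.10), and the replicate block with these offsets also gave 3. The replicate block alone gave 1, 7 and 5 DEGs in the 3 comparisons and changed no call among the 10, while *KRT6C* and *KRT16* were lost as DEGs against CTCFL-OE. Of the Control libraries only replicate 2 correlated best with the same-numbered CTCFL-OE library (correlations -0.0324, 0.188 and -0.0469 for replicates 1, 2 and 3). In CTCFL-KD, *KRT8* measured 0.98 under the block with offsets, *KRT19* became a DEG without CTCFL-KD replicate 2 (1.13) or 3 (1.12), *VIM* became one without the low-count filter (-1.04), in DESeq2, with the offsets (-1.06) and with block and offsets (-1.08), and *LMNA* without the filter (-1.01) and with the offsets (-1.22, also with the block). Without CTCFL-KD replicate 1, 9 of the 10 were DEGs in CTCFL-KD, and against CTCFL-OE *VIM* (0.84) and *KRT19* (0.82) were lost while *KRT7* (-1.23) and *KRT17* (-1.09) were gained. Over all genes the CTCFL-OE count of 368 DEGs became 826 without the filter, 835 in the fit of 2 groups, 617 with offsets, 596 with block and offsets, 980 without CTCFL-KD replicate 1, 1184, 79 and 109 without CTCFL-OE replicates 1, 2 and 3 and 45, 61 and 44 without Control replicates 1, 2 and 3, so its background percent rests on few libraries. The counts for CTCFL-KD (3661 to 5127) and for CTCFL-KD against CTCFL-OE (2332 to 3923) stayed within 1.5 times the values given. Among the other intermediate filament lists, type I keratin DEGs in CTCFL-OE ranged from 0 to 3, the calls of *KRT23*, *IFFO2* and *KRT4* there were lost in 8, 9 and 3 of the 19 settings, and the lamina partner DEGs in CTCFL-KD became 5 without CTCFL-KD replicate 1; the causes were not tested. Depth limits *KRT81* in CTCFL-KD, *CTCFL* and the keratins with a few counts.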
